A study of Mus musculus with 2 samples.

Results

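The Mrgpra3 neurons of the mouse trigeminal ganglion (TG) were examined as 1 class of sensory neurons, the class named NP2 in several atlases of sensory ganglia. The neurons were selected on the measured level of Mrgpra3, with at least 3 Mrgpra3 UMIs (unique molecular identifiers, 1 per captured transcript) and at least 100 Mrgpra3 CPM (counts of the gene per 1000000 UMIs of the cell) in a neuron. A neuron was a cell with at least 5000 UMIs and at least 10 UMIs of Tubb3, Snap25 and Stmn2 together. The rule found 58 Mrgpra3 neurons among 1204 neurons, and the other 1146 neurons served as the comparison.

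The right TG of male C57BL/6 mice of 5 to 8 weeks was dissociated with papain and profiled with the BD Rhapsody whole transcriptome assay in 1 library per condition, a week after injection. The control mice are labelled untreated in the sample records and described as saline-injected in the study's methods. The CFA mice received 20 µL of complete Freund's adjuvant, an oil with killed mycobacteria that causes local inflammation, in the right vibrissal pad. The study's methods give the size of the treatment groups but not how many of these mice went into each library, so intervals below cover counting error only, no p-value was computed, and the condition and the library cannot be told apart.

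Mrgpra3 encodes a Mas-related G protein-coupled receptor (MRGPR) that responds to the itch-causing drug chloroquine, and its neurons are known as C-fibre pruriceptors of the skin. Signals from such receptors are carried in pruriceptors by G proteins of the Gq type, phospholipase C-beta and cation channels of the TRP family. A related receptor, Mrgprb4, is known from fibres of hairy skin that respond to stroking.

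The control library held 45 Mrgpra3 neurons among 795 neurons (5.66%, exact binomial 95% interval 4.16 to 7.50) and the CFA library 13 among 409 (3.18%, 1.70 to 5.37). The intervals of the 2 shares overlapped. A Mrgpra3 neuron had a median of 78446 UMIs in control and 61539 in CFA, against 43390 and 35572 UMIs in the other neurons. In all, 4434723 UMIs were summed over the Mrgpra3 neurons and 50889334 over the other neurons, out of 48916096 UMIs in the file of the control and 22096268 in that of the CFA mice. The files shared 27 cell barcodes, and 2 of these belonged to a Mrgpra3 neuron in 1 of the libraries.

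Mrgpra3 UMIs separated the neurons with few cells between. Of all neurons, 1095 had 0 Mrgpra3 UMIs, 48 had 1 and 3 had 2. Mrgpra3 neurons had a median of 35.5 Mrgpra3 UMIs (range 5 to 195) and a median of 406 CPM (146 to 1966). The cells just inside the rule were a CFA neuron at 146 CPM with 9 UMIs, and 2 control neurons with 5 UMIs at 313 and 346 CPM. The cells just outside were the 3 control neurons with 2 UMIs, at 160, 188 and 221 CPM, which had 12479, 10650 and 9034 UMIs in all. In 2 of these 3, Gfra1, Moxd1, Cbln1, Rgs5 and Mrgprb4 each had at least 1 UMI.

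**Figure D1:**
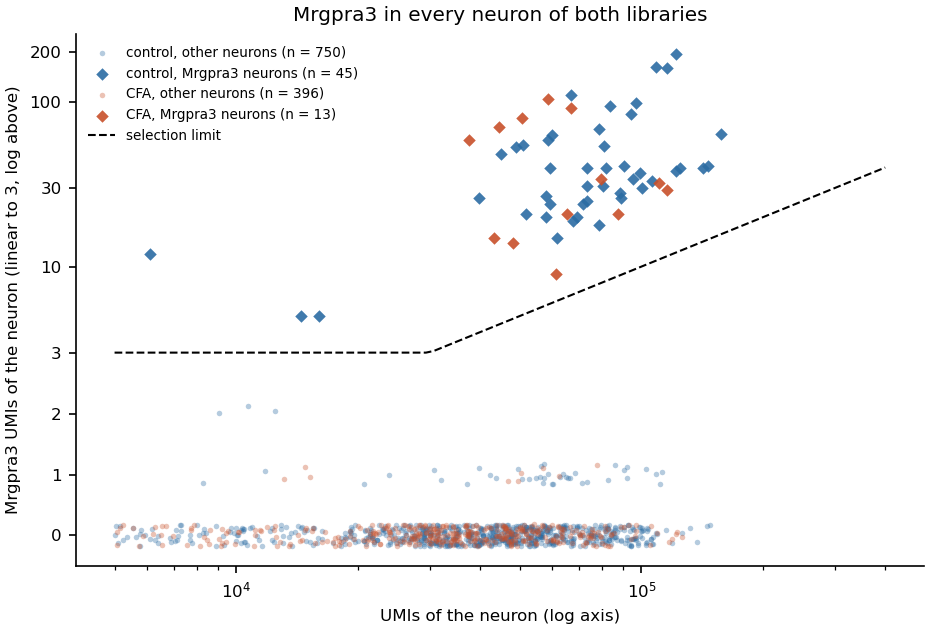
Each point is 1 of the 1204 neurons, with its UMIs on a log axis against its Mrgpra3 UMIs (linear to 3, log above), coloured by library, and the dashed line is the selection limit. The 58 Mrgpra3 neurons (diamonds) have 5 or more Mrgpra3 UMIs and 1095 of the other neurons have none.

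The remaining markers of the class stood with Mrgpra3. Gfra1, the co-receptor through which GDNF signals via Ret, was at 401 CPM in control and 286 CPM in CFA Mrgpra3 neurons, against 21.1 and 15.5 CPM in the other neurons. Cbln1, a secreted synapse organizer, was at 272 and 232 CPM against 4.97 and 3.65 CPM. Moxd1, a copper monooxygenase, was at 205 and 191 CPM against 49.0 and 36.4 CPM. Mrgprb4 was at 28.1 and 31.0 CPM against 0.143 and 0.189 CPM. All 4 markers were therefore higher in the Mrgpra3 neurons of both libraries, with Moxd1 the least restricted, since the neurons with Mrgprd, marker of the neighbouring nonpeptidergic class NP1, had 117 CPM of it. Defining markers of other classes were near 0 in Mrgpra3 neurons. Mrgprd was at 6.54 CPM, Nppb at 2.03 CPM, Sst at 0.902 CPM, Th at 0.677 CPM and Trpm8 at 0.226 CPM. What the cells respond to was not measured.

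For a wider account, UMIs were summed over Mrgpra3 neurons and over other neurons and compared as CPM for 6360 genes. A gene was counted as higher or lower where the sums differed by at least 2-fold in the same direction in both libraries. There were 253 higher genes (3.98% of those compared) and 174 lower genes (2.74%), and the median log2 ratio over all 6360 was 0.01. A gene entered through either set of neurons, so the filter itself favoured 1 direction for a gene that was rare in 1 set. The minimum of 100 UMIs stands for 22.55 CPM in Mrgpra3 neurons. All 35 genes below this level in Mrgpra3 neurons were lower, and 149 of the 402 below it in other neurons were higher. Of the 5923 genes at or above it in both sets, 104 were higher (1.76%) and 139 lower (2.35%), with a median of -0.02. Lists are counted below over the genes at or above 22.55 CPM in both sets, and for the rarer genes values alone are given. The ratios describe cells selected on Mrgpra3 and were not tested.

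**Figure D2:**
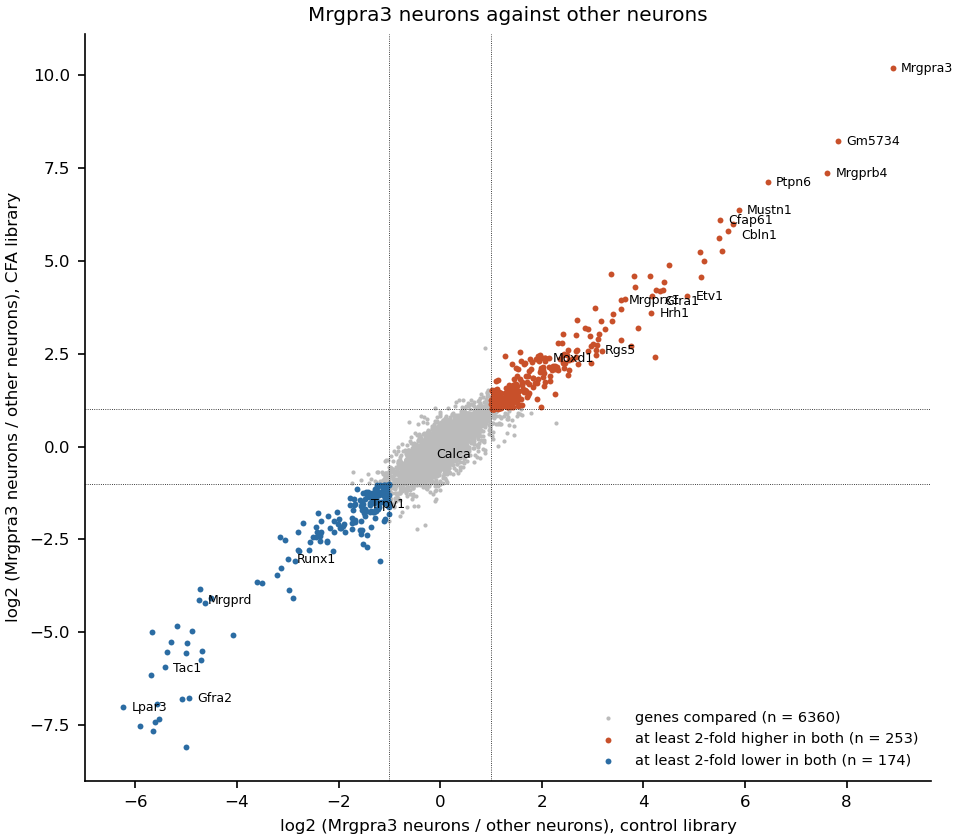
Each point is 1 of 6360 genes, with the log2 ratio of Mrgpra3 neurons over other neurons on the x axis for the control library and on the y axis for the CFA library, and dotted lines mark 2-fold. Higher genes (253, red) include Moxd1, Etv1 and Mrgpra3, lower genes (174, blue) include Lpar3, Gfra2, Tac1 and Mrgprd, and Calca lies near 0.

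The 20 highest genes were led by Mrgpra3 itself at 628 CPM (95% interval 605 to 652) against 1.06 CPM. The second, Gm5734, an annotated pseudogene at chr7:47915322-47916234 on the minus strand, lies in the same gene cluster as Mrgpra3 (chr7:47588950-47601372, minus strand), Mrgprx1 (chr7:48020971-48027597, minus strand) and Mrgprb4 (chr7:48198070-48199288, minus strand; GRCm38). Members of this cluster are close copies, so the split of reads among Mrgpra3, Mrgpra2b and Gm5734 is uncertain. Gm5734 was at 54.3 CPM against 0.216 CPM.

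Among the others were enzymes, receptors and transcription factors that are not part of the MRGPR family. Etv1, a transcription factor of the ETS family, was at 698 CPM in control and 816 CPM in CFA Mrgpra3 neurons against 24.0 and 48.7 CPM in the other neurons, and had at least 1 UMI in all 58 cells. Gda, a guanine deaminase, was at 264 and 310 CPM against 7.49 and 13.0 CPM. Adora2b, the adenosine A2B receptor, was at 75.8 and 52.9 CPM against 1.49 and 0.943 CPM. Each of these 3 was far above the other neurons in both libraries. Ptpn6, the phosphatase SHP-1 known from blood cells, was at 39.8 and 52.9 CPM against 0.457 and 0.377 CPM. Cfap61, named for cilia and flagella, was at 155 and 225 CPM against 3.40 and 3.27 CPM. Of the set, Mlc1 (315 CPM against 14.9 CPM) and Ovol2 (32.3 CPM against 1.45 CPM) came mostly from separate cells, with UMIs of both in 2 of the 58, as described further on. In all, 12 of the 20 genes were at least 2-fold apart in both libraries between Mrgpra3 neurons with and without Mrgprb4 UMIs. Of the 6325 genes compared between these cells, 3.08% were higher and 2.72% lower with Mrgprb4. The 12 include Mrgprb4, which sets the split, and Mrgpra3, which set the selection. The remaining genes of the 20 were Mustn1, Fam183b, Wdr66, Col7a1, 2610307P16Rik, Man1a, Esam and Lrrn4, with log2 ratios from 4.26 for Lrrn4 to 6.01 for Mustn1.

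The 10 lowest genes with at least 100 CPM in other neurons were Lpar3, Gm765, Atp2b4, Kcnc4, Nrip3, Fxyd7, Ache, Tagln2, Plcd4 and Tac1. Lpar3, a receptor for lysophosphatidic acid, was at 2.53 CPM in control and 1.15 CPM in CFA Mrgpra3 neurons against 191 and 148 CPM in the other neurons, and Mrgprd neurons had 568 CPM of it. Tac1, which encodes substance P, was at 81.4 and 47.1 CPM against 3493 and 2913 CPM. Ache, acetylcholinesterase, was at 3.09 and 1.15 CPM against 148 and 140 CPM. The pattern differed between peptides, since Calca, which encodes CGRP, was at 4677 and 4168 CPM in the Mrgpra3 neurons against 5559 and 4781 CPM, a pooled log2 ratio of -0.22 (-0.24 to -0.20).

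Of 18 Mas-related receptor genes in the files, 6 had enough UMIs to be compared and 1, Mrgpre, reached 22.55 CPM in both sets, at 39.7 CPM against 34.4 CPM. Mrgpra3 was fixed by the selection. Mrgprx1, the receptor for the peptide BAM8-22, was at 44.9 CPM in control and 36.8 CPM in CFA Mrgpra3 neurons against 3.83 and 2.39 CPM. Mrgpra2b was at 56.4 and 34.5 CPM against 6.69 and 6.23 CPM. In the list, 6 genes, among them the mast cell receptor Mrgprb2, had 0 UMIs in Mrgpra3 neurons.

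Of 44 receptor genes for other itch mediators, 5 were at the minimum in both sets, of which 1, Osmr, was higher and 0 were lower (median 0.83). Hrh1, the histamine H1 receptor, was at 33.7 CPM in control and 32.2 CPM in CFA against 1.89 and 2.64 CPM in the other neurons. Osmr, the oncostatin M receptor, was at 88.1 and 82.7 CPM against 29.8 and 38.3 CPM. The neurons with Nppb, marker of the third nonpeptidergic class NP3, had similar Hrh1 at 39.4 CPM (23 cells) but more Osmr at 853 CPM. Il31ra, the partner of Osmr in the interleukin-31 receptor, was at 0.902 CPM in Mrgpra3 neurons and 544 CPM in Nppb neurons. Receptors for cytokines shared by many cells, Il6st (453 CPM against 255 CPM) and Il4ra (43.1 CPM against 52.0 CPM), were not 2-fold apart.

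Of 20 genes that carry itch signals inside the neuron, 11 were at the minimum in both sets, 1 was higher (Plcb3) and 2 were lower (Trpa1 and Trpv1), with a median of 0.24. Plcb3, the phospholipase C-beta of these pathways, was at 559 CPM in control and 502 CPM in CFA against 249 and 213 CPM. Mrgprd neurons had 586 CPM of Plcb3 and Tac1 neurons 106 CPM. Trpv1, the capsaicin channel, was at 100 and 93.1 CPM against 289 and 270 CPM, and Trpa1, the channel for irritants, at 79.4 and 62.1 CPM against 315 and 241 CPM. Both channels are taken up again below, because their levels differed among the Mrgpra3 neurons. Of 25 sensory channels and purinergic receptors, 8 were at the minimum in both sets, 0 were higher and 1, the touch channel Piezo2 (61.1 CPM against 210 CPM), was lower, with a median of -0.30.

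Trophic factor receptors and transcription factors were compared next. Of 7 trophic receptor genes at the minimum in both sets, 0 were higher and 0 lower (median -0.08). Gfra2 was at 6.99 CPM against 251 CPM and Gfra3 at 7.22 CPM against 275 CPM, and both were compared only because of their level in the other neurons. Gfra2 is the neurturin co-receptor of Mrgprd neurons, which had 525 CPM of it, and Gfra3 the artemin co-receptor of peptidergic neurons. Of 16 transcription factors at the minimum in both sets, Etv1 was higher and Runx1, Prrxl1 and Hopx were lower, with a median of -0.30. Runx1, which in development directs the nonpeptidergic lineage, was at 20.8 CPM in control and 31.0 CPM in CFA Mrgpra3 neurons, and at 266 CPM in Mrgprd, 189 CPM in Nppb and 148 CPM in Tac1 neurons. Etv1 was at 803 CPM in Nppb neurons, close to the Mrgpra3 neurons, and at 12.5 CPM in Mrgprd and 16.9 CPM in Tac1 neurons.

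Of 13 genes known from nonpeptidergic neurons at the minimum in both sets, 3 were higher (Acpp, Plxnc1 and Tmem45b) and 1 lower (Runx1), with a median of 0.87. Acpp, an acid phosphatase, was at 772 CPM in Mrgpra3 neurons, 695 CPM in Mrgprd neurons and 55.4 CPM in Tac1 neurons. Scn10a and Scn11a, the sodium channels Nav1.8 and Nav1.9, were at 584 CPM and 856 CPM in Mrgpra3 neurons and at 583 CPM and 961 CPM in Mrgprd neurons. Across genes, levels in Mrgpra3 neurons had a rank correlation of 0.775 with Mrgprd neurons (221 cells, 2350 genes). The correlation was 0.710 with Tac1 neurons (692 cells, 2468 genes) and 0.697 with Nppb neurons (23 cells, 2471 genes). These values come from the same libraries and carry no test. The classes differ in cells, depth and genes compared, so the order of the values is not a measure of likeness.

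Among other signalling genes, regulators of G protein signalling (RGS) and potassium channels held several higher genes. Of 9 RGS genes at the minimum in both sets, 2 were higher and 0 lower, with a median of 0.18. Rgs5 was at 1027 CPM in control and 903 CPM in CFA against 122 and 149 CPM, and Rgs4 at 4766 and 4871 CPM against 1924 and 1772 CPM. Of 15 potassium channel genes at the minimum in both sets, 3 were higher (Kcnmb1, Kcnip4 and Kcnt1) and 1 lower (Kcna2), with a median of 0.28. Kcnmb1, a subunit of the calcium-activated BK channel, was at 431 and 407 CPM against 54.9 and 62.1 CPM. Of 5 neuropeptide and secreted synaptic genes at the minimum in both sets, 0 were higher and 2 lower (Tac1 and Scg2), with a median of -0.22. Scn3b was higher and Scn7a and Scn4b lower among 9 sodium channel genes (median -0.07). Of 9 calcium channel genes 0 passed in either direction (median -0.36).

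Markers of the cells that surround the neurons were summed in the same way. The 10 satellite glia markers summed to 515 CPM in control and 455 CPM in CFA Mrgpra3 neurons, against 472 and 427 CPM in the other neurons. The most abundant was Glul at 314 CPM, which neurons also express, Ptprz1 was at 33.8 CPM against 4.60 CPM, and the glial Fabp7 was at 7.44 CPM against 12.7 CPM. The 10 myelinating Schwann cell markers summed to 1072 and 877 CPM against 1018 and 827 CPM, led by Pmp22 at 830 CPM. The 10 immune markers summed to 24.7 and 19.5 CPM against 51.3 and 12.6 CPM, led by H2-Ab1 at 8.12 CPM. The 10 fibroblast markers summed to 132 and 65.5 CPM against 233 and 204 CPM, led by Apod at 42.4 CPM. The 10 vascular markers summed to 47.4 and 27.6 CPM against 49.2 and 29.6 CPM, led by Pecam1 at 36.3 CPM, with Kdr and Myh11 at 0 UMIs. The 6 red cell markers summed to 15.2 and 33.3 CPM against 37.6 and 46.0 CPM. No Mrgpra3 neuron had a doublet score above 0.25.

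The Mrgpra3 neurons divided by Mrgprb4 into groups that differed in many genes. Mrgprb4 UMIs were found in 29 of the 58 cells (23 in control, 6 in CFA) and not in the other 29 (22 in control, 7 in CFA). The cells without Mrgprb4 held 1980991 UMIs in all, and the cells with it held 127 Mrgprb4 UMIs in 2453732. The median depth was 80464 UMIs with Mrgprb4 and 67018 UMIs without. Thinned to 5000 UMIs per cell, only 4 of 58 cells (6.90%, interval 1.91 to 16.7) still had a Mrgprb4 UMI, against 50% at full depth. In the other neurons 5 of 1146 (0.436%) had one, at a median of 40440 UMIs per cell against 73212 UMIs in Mrgpra3 neurons. Of 6325 genes with at least 100 UMIs over the 58 cells, 195 (3.08%) were at least 2-fold higher in the cells with Mrgprb4 in both libraries and 172 (2.72%) at least 2-fold lower. The split was set by Mrgprb4, so the values for other genes are given as a description.

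With Mrgprb4 went Mlc1, a membrane protein also known from astrocytes, which had 1391 UMIs in the 29 cells with Mrgprb4 (567 CPM) and 7 UMIs in the 29 without (3.53 CPM). Every cell with Mrgprb4 had at least 15 Mlc1 UMIs and 3 of the cells without had any. Thy1, a surface glycoprotein of neurons, was at 807 CPM against 14.1 CPM. Scn2b, an auxiliary sodium channel subunit, was at 311 CPM against 10.6 CPM, and Serping1, the C1 inhibitor of complement, at 357 CPM against 6.56 CPM. All 4 genes had UMIs in each of the 29 cells with Mrgprb4. Slc7a3, a transporter of cationic amino acids, was at 159 CPM against 1.01 CPM. Ntrk3, the receptor of neurotrophin-3, was at 155 CPM against 5.05 CPM, and Kcnq3, a subunit of the M-type potassium channel, at 117 CPM against 11.1 CPM. Cbln1 was also mainly theirs, at 450 CPM against 33.3 CPM, as were Rgs5 at 1598 CPM against 265 CPM and Ptpn6 at 76.2 CPM against 0.505 CPM. The other genes of the 12 highest were Igsf21, 2610307P16Rik, Olfml3, Cmtm8, Atp6v1c2, Col7a1 and Otoa.

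Without Mrgprb4, the leading genes were Nrp1, Klhdc8a, Card10, Tmem100, Crip1, Lcorl, Ovol2, Pcp4l1, Nsg1, Ass1, Gm567 and Timp2. Tmem100, a membrane protein that modulates the coupling of TRPA1 and TRPV1, had 7 UMIs in the cells with Mrgprb4 (2.85 CPM) and 499 in the cells without (252 CPM). Ovol2, a zinc finger transcription factor, had 0 UMIs in the cells with Mrgprb4 and 143 in 25 of the 29 cells without (72.2 CPM), at least 59.0-fold lower with the 3 counts that a sum of 0 allows over the 29 cells. Timp2, an inhibitor of metalloproteinases, was at 23.2 CPM against 863 CPM, and Nrp1, a receptor for semaphorins, at 0.408 CPM against 117 CPM. Mrgpra3 itself was lower in the cells with Mrgprb4, at 353 CPM against 969 CPM, a measure tied to the selection. Calca was at 2097 CPM against 7650 CPM, while Tac1 was low in both, at 62.8 CPM and 89.4 CPM.

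**Figure D3:**
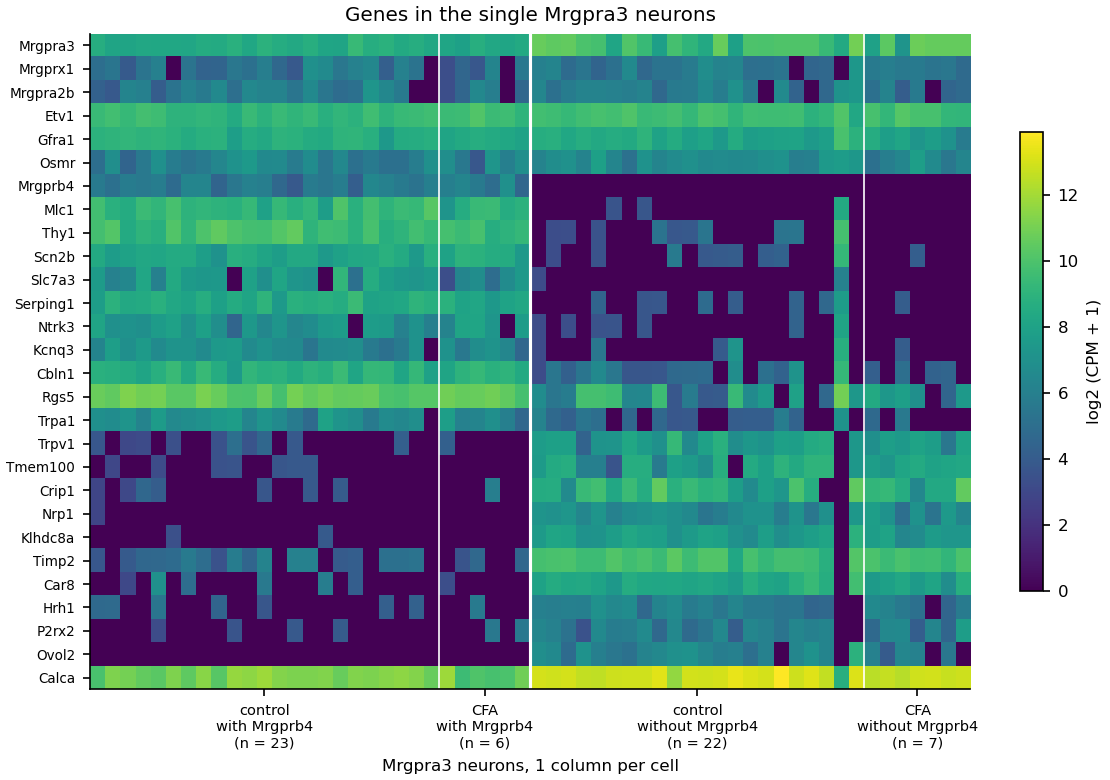
Each column is 1 of the 58 Mrgpra3 neurons, in 4 blocks by Mrgprb4 and library, each row a gene, and the colour is log2 (CPM + 1). Mlc1 to Trpa1 are mostly high in the 29 cells with Mrgprb4 and Trpv1 to Calca mostly in the 29 without, with exceptions in either group, such as 17 cells without Mrgprb4 that have a Trpa1 UMI and 1 control cell without Mrgprb4 that has the opposite pattern.

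Some receptors and channels for itch and pain differed between the groups. A gene entered on its UMIs over both groups together, so a gene rare in a group could be compared through the other group alone. F2r had 121 UMIs with Mrgprb4 and 6 without, and Hrh1 had 22 and 126. The counts and medians of the itch lists below therefore describe the genes compared and say nothing about the lists as a whole. Of 8 itch mediator receptors compared, 2 were higher with Mrgprb4 (F2r and Cysltr2) and 1 was lower (Hrh1), with a median of -0.24. Of 12 genes of itch transduction, 1 was higher (Trpa1) and 2 were lower (Trpv1 and Tmem100), with a median of -0.07. Trpv1 was at 6.52 CPM with Mrgprb4 and 214 CPM without, a log2 ratio of -5.03 (-5.85 to -4.32), with values of -5.01 in control and -5.30 in CFA. Trpa1 went the other way, at 120 CPM against 21.2 CPM, a log2 ratio of 2.50 (2.03 to 3.01), with 2.39 in control and 3.01 in CFA. Hrh1 was at 8.97 CPM against 63.6 CPM, P2rx2 at 3.67 CPM against 61.1 CPM, P2rx3 at 4.08 CPM against 51.5 CPM and Ptgir, the prostacyclin receptor, at 4.89 CPM against 102 CPM. Thus Trpv1, Hrh1, Ptgir and the ATP-gated channel genes P2rx2 and P2rx3 were higher in the group without Mrgprb4. F2r, the thrombin receptor PAR1, was at 49.3 CPM with Mrgprb4 against 3.03 CPM, and Cysltr2, a receptor for cysteinyl leukotrienes, at 42.8 CPM against 5.55 CPM. Mrgprx1 (38.7 CPM against 49.0 CPM), Mrgpra2b (50.1 CPM against 54.5 CPM) and Osmr (74.99 CPM against 102 CPM) were within 2-fold, as were Etv1 (659 CPM against 798 CPM), Gfra1 (429 CPM against 317 CPM), Scn10a and Scn11a.

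Per list, potassium channels had 6 of 19 compared genes higher with Mrgprb4 (Kcnq3, Kcnip2, Kcnd3, Kcnn1, Kcnh7 and Kcnip4) and 1 lower (Kcnn2), with a median of 0.47. Sodium channels had 3 of 9 higher (Scn2b, Scn4b and Scn8a) and 0 lower (median 0.17), and calcium channels 1 of 9, Cacnb4 (113 CPM against 5.55 CPM). Sensory channels and purinergic receptors had 1 higher, Tmem63c, and 3 lower (Piezo2, P2rx2 and P2rx3) of 13. Here too a gene rare in 1 group, such as Cacnb4, could be compared through the other group alone. The counts of these channel lists therefore describe single genes and say nothing about the lists as a whole. Lists with 0 genes in either direction included the 73 nuclear genes of oxidative phosphorylation (median 0.05) and 18 heat shock genes (median 0.10). Of the markers of other cells, Dcn and Gsn, of fibroblasts, were lower with Mrgprb4 (15.5 CPM against 49.97 CPM and 12.2 CPM against 54.5 CPM), and the 10 fibroblast markers summed to 73.4 CPM against 175 CPM. Their part in the other differences was not tested.

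The cells were also described one by one. The UMIs of Mlc1, Thy1, Scn2b, Slc7a3 and Ntrk3 made up 91.4 to 100% of their sum with Tmem100, Crip1, Klhdc8a, Nrp1 and Car8 in the cells with Mrgprb4 (median 99.5%), and a median of 1.10% in the cells without. These 10 genes were chosen after their values were seen, because they differ between the same groups, so the choice largely fixed how far the shares lie apart. One control cell without a Mrgprb4 UMI stood with the other group, with 100%. It had 14467 UMIs, 5 of Mlc1, 13 of Thy1 and 9 of Scn2b, and 0 of the 5 genes of its own group, and 0 of the 58 cells lay between 10 and 90%. The ranges of CPM per cell overlapped between the groups for all but 4 of the 6325 genes (Mrgprb4, which defines the groups, Unc119, Ptgir and Ddah1). For some other genes the overlap came from that 1 control cell alone. Without it, an alternative chosen after seeing the data, 24 genes did not overlap, 13 higher and 11 lower with Mrgprb4, among them these 4 and Mlc1, Thy1, Scn2b, Serping1, Cbln1, Timp2, Nrp1 and Klhdc8a, while the genes at least 2-fold apart numbered 197 higher and 174 lower. The share of cells with Mrgprb4 was 51.1% in control (exact interval 35.8 to 66.3) and 46.2% in CFA (19.2 to 74.9).

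The groups were also set beside the neighbouring classes. In the Tac1 neurons, Calca stood at 9375 CPM and Tac1 itself at 6059 CPM. The group without Mrgprb4 had 7650 CPM of Calca and its Tac1 was below the 285 CPM of Mrgprd neurons. Gfra2 was at 7.74 CPM with and 6.06 CPM without Mrgprb4. Trpv1 in the group without Mrgprb4 (214 CPM) lay between Mrgprd neurons (24.9 CPM) and Nppb neurons (457 CPM). Ntrk3 and Rgs5 in the group with Mrgprb4 exceeded all 3 classes, whose highest values were 49.7 CPM of Ntrk3 in Mrgprd neurons and 69.6 CPM of Rgs5 in Tac1 neurons.

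**Figure D4:**
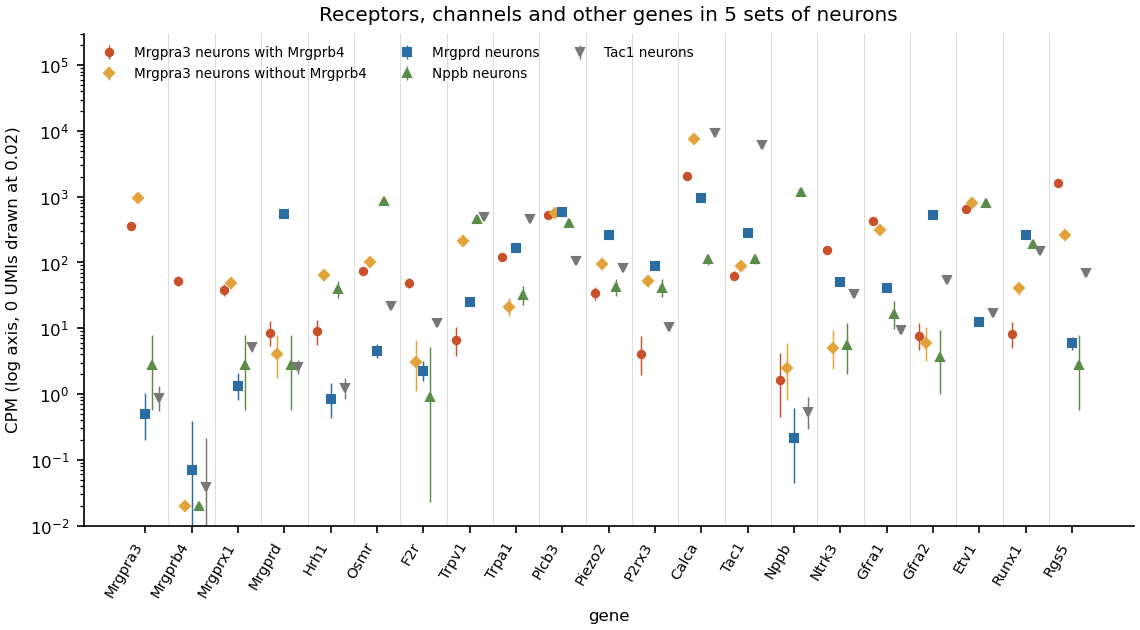
CPM on a log axis of 21 genes in the 29 Mrgpra3 neurons with Mrgprb4, the 29 without, and 221 Mrgprd, 23 Nppb and 692 Tac1 neurons, with exact Poisson 95% intervals and sums of 0 drawn at 0.02. Both groups share Etv1 with Nppb neurons, and the group without Mrgprb4 is the higher for Trpv1 and the lower for Trpa1.

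Promoters are shown for 1 gene that all Mrgpra3 neurons share (Etv1), for Mrgprb4, for Mlc1, which led the genes higher with Mrgprb4, and for Ovol2, which had 0 UMIs in that group. Mrgpra3, Cbln1 and Thy1 had no entry in the sequence table. The sequences are RefSeq sequences on GRCm38.p6 from 250 bases before to 50 after the start of a RefSeq transcript, written 5′ to 3′ on the strand of the gene. Capitals mark TGTGGT, the core bound by RUNX factors (or ACCACA, on the other strand), and CCGGAA, the core of ETS factors (or TTCCGG). The Etv1 promoter shown, 1 of 2 in the table, lies at chr12:38779832-38780131 on the plus strand, the Mrgprb4 promoter at chr7:48199129-48199428, the Mlc1 promoter at chr15:88978504-88978803 and the Ovol2 promoter at chr2:144331313-144331612, all 3 on the minus strand. A RefSeq start need not be the outermost start of the gene in the GENCODE annotation, and the windows of Etv1, Mlc1 and Ovol2 lie inside the gene as annotated there.
Etv1: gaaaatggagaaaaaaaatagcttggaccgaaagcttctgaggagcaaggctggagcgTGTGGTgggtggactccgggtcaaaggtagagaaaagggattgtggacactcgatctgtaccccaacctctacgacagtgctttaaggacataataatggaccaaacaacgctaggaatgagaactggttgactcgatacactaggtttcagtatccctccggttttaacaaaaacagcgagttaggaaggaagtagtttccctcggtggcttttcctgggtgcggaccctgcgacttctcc
Mrgprb4: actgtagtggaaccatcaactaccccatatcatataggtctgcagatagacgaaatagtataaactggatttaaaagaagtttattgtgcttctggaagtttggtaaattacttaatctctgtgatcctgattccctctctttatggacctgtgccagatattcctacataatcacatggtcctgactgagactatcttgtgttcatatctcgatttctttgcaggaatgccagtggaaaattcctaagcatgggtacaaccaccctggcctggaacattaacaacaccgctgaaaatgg
Mlc1: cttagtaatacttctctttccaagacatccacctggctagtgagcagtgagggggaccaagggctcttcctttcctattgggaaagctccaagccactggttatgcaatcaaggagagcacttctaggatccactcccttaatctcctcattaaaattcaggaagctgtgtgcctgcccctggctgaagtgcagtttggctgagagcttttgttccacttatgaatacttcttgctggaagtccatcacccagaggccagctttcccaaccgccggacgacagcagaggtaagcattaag
Ovol2: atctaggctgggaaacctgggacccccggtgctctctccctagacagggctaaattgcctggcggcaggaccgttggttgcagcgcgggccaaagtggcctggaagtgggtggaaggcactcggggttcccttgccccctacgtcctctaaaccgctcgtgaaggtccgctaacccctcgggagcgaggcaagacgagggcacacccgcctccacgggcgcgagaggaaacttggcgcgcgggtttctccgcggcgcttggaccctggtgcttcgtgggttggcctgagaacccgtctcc

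Of the 20 highest genes over other neurons, 16 matched a promoter entry by symbol, with 17 promoters. TGTGGT was found in 1 of the 17 (5.88%), the Etv1 promoter shown, and in 16.8% of all 32851 promoters of this length. CCGGAA was found in 3 of the 17 (17.6%), those of 2610307P16Rik, Cfap61 and Gfra1, and in 14.9% of all. In the 9 promoters of the 12 genes highest with Mrgprb4, TGTGGT was found in 0 and CCGGAA in 3, and in the 11 promoters of the 12 lowest genes in 0 and 1. The letters describe these windows only.

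The last comparison asked how the CFA library differed from the control library within Mrgpra3 neurons, 13 cells against 45. Of 6325 genes, 14 were at least 2-fold higher in CFA (0.221%) and 52 at least 2-fold lower (0.822%). The median log2 ratio was -0.03 in Mrgpra3 neurons and -0.01 for the same genes in the other neurons. The 5 markers of the class and the 8 itch mediator receptors compared were not among these genes. With 0.221% and 0.822% of all genes past 2-fold, their absence says nothing about them as sets. Mrgpra3 was at 668 CPM in CFA and 618 CPM in control (log2 0.11, -0.02 to 0.24), a gene that the selection used. Calca was at 4168 and 4677 CPM (-0.17), Gfra1 at 286 and 401 CPM (-0.49, -0.69 to -0.29), Osmr at 82.7 and 88.1 CPM (-0.09) and Trpv1 at 93.1 and 100 CPM (-0.11). Of the 8 itch mediator receptors, 12 genes of itch transduction, 13 sensory channels and 16 nerve injury genes compared, 1 in all passed 2-fold, the injury gene Flrt3. Given the low shares over all genes, this count says nothing about these lists.

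The 10 highest genes in CFA were Lrrc17, Bc1, mt-Co1, Ifi27l2a, Prdx2-ps1, Gm567, Hmg20b, C78859, Pcp4l1 and Eid1. Lrrc17, a leucine-rich repeat protein, was at 109 CPM in CFA and 28.3 CPM in control Mrgpra3 neurons (log2 1.95, 1.53 to 2.36), with 1.89 in the cells with Mrgprb4 and 2.02 in those without. In the other neurons the same ratio was 1.43. Bc1, a short non-coding RNA of neurons, was at 1917 and 808 CPM (1.25), with 0.93 in the other neurons, and mt-Co1, a subunit of cytochrome c oxidase, at 3169 and 1347 CPM (1.23), with 0.97. For these 3 the difference was thus also seen in the other neurons of the same libraries. Of 9 mitochondrially encoded genes compared, mt-Co1 passed, 7 lay above 0 and the median was 0.33, against 0.18 in other neurons. Over all 6325 genes these medians were -0.03 and -0.01. The mitochondrial tRNA gene mt-Ts1 is not in this list and was among the 10 lowest genes in CFA, named below. Ifi27l2a, an interferon-inducible gene, was at 222 and 99.9 CPM (1.15, 0.89 to 1.41) and went the other way in the other neurons (-0.63, -0.76 to -0.49). Gm567 and Pcp4l1 were genes of the group without Mrgprb4, which gave 7 of 13 cells in CFA and 22 of 45 in control, and their ratios within that group were 0.88 and 0.85.

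The 10 lowest genes in CFA were Apoe, Dcn, Ifit1, Flrt3, Gm20721, mt-Ts1, Gm43652, Mab21l1, Slc7a3 and Arhgef1. Apoe, a lipid carrier of glia and macrophages, was at 13.8 CPM in CFA and 63.4 CPM in control Mrgpra3 neurons (log2 -2.20, -3.18 to -1.37) and at -1.03 in the other neurons. Dcn, a matrix protein of fibroblasts, was at 8.04 and 36.5 CPM (-2.18) and at -0.28 in the other neurons. Both are markers of other cell types, whose lists summed to 455 and 515 CPM for satellite glia and 65.5 and 132 CPM for fibroblasts. In the other neurons the fibroblast list summed to 204 CPM in CFA and 233 CPM in control. The part of such RNA in the result was not tested. Ifit1, an interferon-induced antiviral protein, was at 11.5 and 48.0 CPM (-2.06, -3.15 to -1.15) and at -0.80 in the other neurons, and 1 control cell held 28.7% of its control UMIs. Flrt3, an adhesion molecule induced in injured neurons, was at 10.3 and 42.9 CPM (-2.05). Slc7a3, a gene of the group with Mrgprb4, was at 36.8 and 101 CPM (-1.46), with -1.27 within that group.

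Of 14 interferon response genes compared, 0 were higher and 2 lower (Ifit1 and Ifit3), 11 lay below 0, and the median was -0.19 against -0.44 in the other neurons. Over all 6325 genes, 0.221% were higher and 0.822% lower, with a median of -0.03 against -0.01 in the other neurons. Ifit3 was at 33.3 and 67.3 CPM (-1.02). Ifi27l2a, which was more than 2-fold higher in CFA, is not in this list. The 12 immediate early genes had 0 past 2-fold and a median of -0.05, against 0.14 in the other neurons. Of the 66 genes past 2-fold, 53 moved the same way in the other neurons, and 6 did so by at least 2-fold. The matching shares over all 6325 genes were not counted, so it is not known whether these counts are unusual. When the cell with the most UMIs of a gene was left out of either library, 46 of the 66 stayed past 2-fold. A single CFA cell held between 10.1 and 50% of the CFA UMIs of a gene past 2-fold (median 25%).

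**Figure D5:**
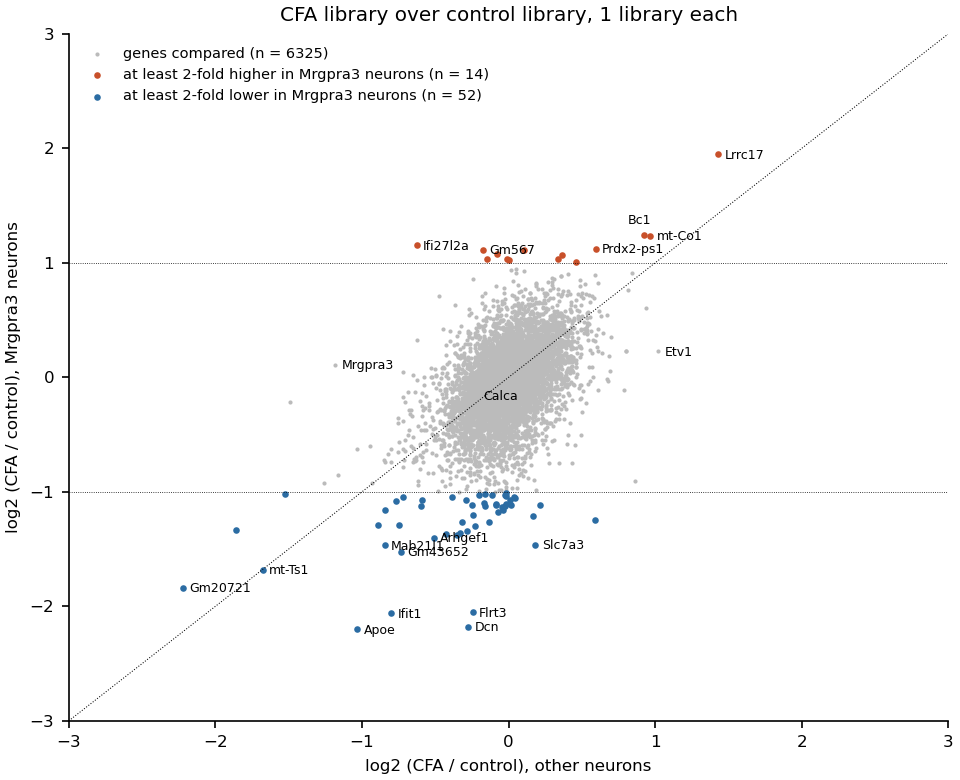
Each point is 1 of 6325 genes, with the log2 ratio of CFA over control in the other neurons on the x axis and in Mrgpra3 neurons on the y axis (1 library per condition), and the dotted diagonal marks equal ratios. Lrrc17, Bc1 and mt-Co1 are higher on both axes, Ifi27l2a has opposite signs, and Apoe, Dcn and Ifit1 lie below -2 in Mrgpra3 neurons.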

How the data were processed

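Expression was measured by single-cell RNA sequencing (BD Rhapsody) in 1 control and 1 CFA library of mouse TG. The authors deposited UMI counts per gene and cell, as whole numbers that had not been normalized. The submitters' processing notes name fastp and GRCm38; the counting software is not given in the sources used here. Cells with at least 150 genes and at most 25% mitochondrial UMIs were kept, the limits that the study's methods state. They left 10356 of 11378 cells, which is not the cell count that the study gives. UMIs were summed over the cells of a class and expressed as CPM with exact Poisson 95% intervals. Ratios carry conditional exact binomial intervals and shares exact Clopper-Pearson intervals, and all cover counting error only. Cells are not replicates, so nothing was tested. A gene was compared with at least 100 UMIs over the Mrgpra3 neurons or, against the other neurons, at least 100 CPM in these, and a sum of 0 was set to 3 counts. The comparison classes were neurons with at least 3 UMIs and 100 CPM of Mrgprd or Nppb, or 1000 CPM of Tac1, and 17 neurons that passed 2 of these rules were left out of them.

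The genes named are the 5 markers, the 20 highest and 10 lowest ratios over other neurons, the 10 highest and 10 lowest ratios of CFA over control, and up to about 6 genes per list by level or difference. The 12 highest and lowest genes of the Mrgprb4 comparison, Car8, Unc119, Ddah1 and the ETS search were chosen after their values were seen. The Mrgpra3 rule and the gene lists were chosen with earlier results of these data known. Doublets were scored per library with Scrublet in scanpy 1.11.5, which marked 122 of 6695 control cells and 25 of 3661 CFA cells. Gene positions are from GENCODE M21. The calculations used Python 3.11.15, numpy 2.4.6 and scipy 1.17.1, and were tested on simulated data. A comparison of receptor proteins that had been planned, and some withheld items, are not reported here.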

Additional observations from a re-analysis of the deposited data

Results flagged for a closer look

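Ifi27l2a was picked out because its CFA over control difference had opposite directions in the 2 sets of neurons, with a log2 ratio of 1.15 in Mrgpra3 neurons and -0.63 in the other neurons. It was not the only gene to do so, since 53 of the 66 genes past 2-fold in CFA moved the same way in both sets. The difference between the sets was not tested, since each ratio compares 1 library with 1 library. All 13 CFA cells and 36 of 45 control cells had an Ifi27l2a UMI, and 1 CFA cell held 19.2% of the CFA UMIs. The ratio was 0.86 in the cells with Mrgprb4 and 1.20 in those without.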

How the results depend on the processing

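No paired analysis was possible because each condition had 1 library. Thinned to 5000 UMIs per neuron, 48 of 2159 genes compared were higher in Mrgpra3 neurons (32 of them among the 253). At this depth 153 were lower (114 of them among the 174), so lower genes outnumbered higher ones, unlike among all 6360 genes at full depth. Among the 5923 genes at or above 22.55 CPM in both sets, lower genes outnumbered higher ones at full depth too (139 against 104). The minimum of 100 UMIs was kept after thinning, so it stood for a higher CPM in Mrgpra3 neurons. Entry at 100 CPM in the other neurons did not change. With Mrgprb4, 9 of 525 were higher and 9 lower (7 and 7 in common with full depth). In CFA, 3 of 525 were higher and 2 lower (2 and 0 in common). Thinning also turned the CFA over control log2 ratios of Prdx2-ps1 (-0.21), Gm20721 (1.38) and Mab21l1 (0.38). A gene minimum of 50 UMIs (and 50 CPM in the other neurons) gave 343 genes lower in Mrgpra3 neurons, 282 lower with Mrgprb4, and 37 higher and 182 lower in CFA. A minimum of 200 UMIs (and 200 CPM) gave 78 lower in Mrgpra3 neurons, 113 higher and 87 lower with Mrgprb4, and 6 higher and 14 lower in CFA. No minimum gave 1265 higher and 1185 lower, 372 and 395, and 656 and 742. At 4-fold, 87 were higher and 55 lower in Mrgpra3 neurons, and 74 higher and 69 lower with Mrgprb4. At 1.5-fold, 151 were higher and 349 lower in CFA. With the cells with and without Mrgprb4 weighted equally, an alternative chosen after seeing the data, 9 were higher in CFA. With only the genes at or above 22.55 CPM in both sets, also chosen after seeing the data, 104 were higher in Mrgpra3 neurons. Of 2103 values of named genes, lists and shares under 25 alternatives, 1868 kept their size, 232 moved and 3 turned. The CFA sums rest on 13 cells, and 1 library per condition gives no measure of the spread between animals.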

Other observations

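Stress and activity genes were compared between Mrgpra3 neurons and the other neurons by the same 2-fold rule, over the 5923 genes at or above 22.55 CPM in both sets, of which 1.76% were higher and 2.35% lower, with a median log2 ratio of -0.02. Of 12 immediate early genes, 0 were higher and 3 lower (Jun, Ier3 and Klf6), with a median log2 ratio of -0.73. Jun, a subunit of the factor AP-1, was at 229 CPM in control and 277 CPM in CFA Mrgpra3 neurons against 611 and 676 CPM in the other neurons. Of 16 genes known from nerve injury, 0 were higher and 3 lower (Jun, Socs3 and Klf6), with a median of -0.62. Of 13 interferon response genes, Ifit3 was higher and Ifit1, Irf1, Oasl2 and B2m lower, with a median of -0.28. Of 12 genes of glutamate and GABA signalling, Grik1, a kainate receptor subunit, was lower, at 75.8 CPM in control and 73.5 CPM in CFA Mrgpra3 neurons against 310 and 251 CPM in the other neurons. The 2 inhibitory receptors compared were each below this level in 1 of the sets. Galr1, a galanin receptor, was at 49.4 CPM in control and 49.4 CPM in CFA Mrgpra3 neurons against 8.69 and 13.0 CPM in the other neurons, and Adora1, the adenosine A1 receptor, was at 19.1 CPM in control and 27.6 CPM in CFA Mrgpra3 neurons against 132 and 136 CPM in the other neurons.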
